A study of Mus musculus with 24 samples.

Results

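Ocy454 cells, an established mouse cell line of osteocytic cells, were compared at 8 h between cultures given lysophosphatidic acid (LPA) together with 1,25-dihydroxyvitamin D (1,25D) and cultures labelled as given 1,25D alone. The comparison rests on 6 of the 24 libraries of the study, 3 in each group, and was drawn by file code: the files coded h8_LD (titles 8hLD) hold the cultures with both agents, and the files coded h8_L carry the titles 8hD and descriptions that name 1,25D. The study as a whole asked how LPA and 1,25D act together on synthesis of fibroblast growth factor 23 (FGF23), with vehicle, each agent alone and both agents at 2 h and at 8 h. No dose, clone, passage or culture number is given in the labels. The p-values measure the spread between libraries of a group, pooled over all 24 libraries, which may be technical. All groups share the same cell line, and the labels name no genetic difference between them. In the text, a gene "rose" or "fell" when it was higher or lower in the both-agents libraries than in the libraries labelled 1,25D, with an adjusted p below 0.05.

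The file codes and the titles name opposite agents for the single treatments: the libraries labelled 1,25D have the letter L in their file codes, and the libraries labelled LPA have the letter D. Cyp24a1, the 24-hydroxylase that breaks down 1,25D and a textbook target of its receptor, went against the titles. It had 0, 1 and 0 counts in the 3 libraries labelled 1,25D at 8 h and 1, 0 and 0 in vehicle, against 25, 48 and 29 in the libraries labelled LPA and 35, 28 and 24 with both agents. By the titles the comparison adds LPA to 1,25D, and by the file codes it adds the agent coded D to the agent coded L. The groups are therefore called by their labels throughout, and every direction below carries this reservation.

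The vitamin D receptor (VDR) is a nuclear receptor that binds 1,25D, pairs with retinoid X receptors and acts on enhancers near and far from its target genes. LPA is a phospholipid that acts through G protein-coupled receptors, and these reach the ERK kinases and the actin cytoskeleton. Osteocytes, the cells embedded in bone matrix, secrete FGF23, which lowers blood phosphate and 1,25D, and they steer bone resorption through the ligand RANKL and its decoy osteoprotegerin.

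The 6 libraries held 32.96 to 33.84 M estimated counts each, and mitochondrially encoded genes took 11.87% to 13.1% of them. The both-agents replicate 2 stood apart: over all genes tested, the second principal component of the 6 libraries carried 18.9% of the variance and placed it at 30.9, against -27.7 and -31.4 for replicates 1 and 3. On the first component, with 38.9% of the variance, replicate 2 stood at 56.7, against 22.4 and 8.1 for replicates 1 and 3. In the both-agents group replicate 2 had the lowest value of 309 of the 564 genes that fell and the highest of 660 of the 943 that rose. Replicate 3 lay on the other side, with the highest value of 298 of the 564 and the lowest of 596 of the 943. The genes that fell had a median transcript length of 3938 bases, against 2539 bases for those that rose and 2523 bases for all genes tested. With a correction for GC content and transcript length, 1879 genes passed, 1081 up and 798 down, and 486 of the 564 falls remained. Without the both-agents replicate 2, 303 of the 564 falls remained, and 429 when replicate 2 of vehicle was left out as well. The loss was not particular to this library: 354 and 485 remained without both-agents replicates 1 and 3. Without labelled 1,25D replicates 1, 2 and 3, 375, 356 and 296 remained. Of the markers that define osteocytes, Mepe was at 0 counts in all 6 libraries, and Sost had 1 count over the libraries labelled 1,25D and 10 over those with both agents. Dmp1 and Phex were present at between 0.61 and 4.8 CPM (counts scaled to a common library size), while Pdpn and Cd44 stood at 78.8 CPM or more.

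Of 16424 genes tested, 1507 (9.18%) passed, of which 943 (5.74%) rose and 564 (3.43%) fell (edgeR quasi-likelihood test with Benjamini-Hochberg adjustment over all genes). Among them, 209 (1.27% of those tested) rose by at least 2-fold and 83 (0.505%) fell by at least 2-fold. Without the both-agents replicate 2, 897 genes passed, 557 up and 340 down, and 838 of the 1507 calls remained. Leaving out each of the 6 libraries in turn gave 886 to 1936 calls, the fewest without labelled 1,25D replicate 3. Across the 15 alternatives that were run, 807 to 2386 genes passed. Without a filter on low counts the balance turned, with 880 higher and 1506 lower. Of the 1507 genes, 554 passed in every alternative: 390 that rose and 164 that fell. The median log2 fold change of all genes tested was 0.03. The groups did not overlap for 31.9% of all genes tested and for 99.5% of those that rose, so that separate groups are usual among called genes. With bulk RNA, a change in the number of cells of a kind and a change in RNA per cell cannot be told apart.

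The receptor and the enzyme that removes its ligand both rose. Vdr itself stood at 70.6, 74.3 and 71.9 CPM in the libraries labelled 1,25D and at 229, 205 and 236 CPM with both agents. The groups did not overlap, and the difference was 3.09-fold (log2 fold change 1.63 ± 0.08 SE, adjusted p = 1.5e-12). For Cyp24a1 the summed counts were 1 and 87, a ratio of 90.2 with an exact binomial 95% interval of 15.8 to 3600 that covers counting error only (adjusted p = 2.3e-05 in edgeR, no adjusted p in DESeq2). All 3 both-agents libraries held Cyp24a1 counts, at 1.07, 0.902 and 0.72 CPM. The receptor's partners did not follow: Rxra stood at 60.7, 61.4 and 64.1 CPM against 51.1, 36.9 and 58.3 CPM (log2 fold change -0.35 ± 0.22, adjusted p = 0.33). In the list of vitamin D enzymes, receptor partners and coregulators 2 of 15 members tested rose, Vdr and Cyp24a1, and none fell. Of all genes tested, 5.74% rose and 3.43% fell.

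Among known VDR targets, 9 of the 20 members tested rose and none fell, against 5.74% of all genes that rose, with a list median of 0.31. The list was chosen with earlier results of these data known, so that this share is not an independent test. Without the both-agents replicate 2, 9 rose and 1 fell. The list holds Enpp3, a surface enzyme that splits nucleotides and related phosphodiesters, which went from 6.73, 6.24 and 6.47 CPM to 95.2, 100 and 87.4 CPM (14.5-fold, log2 fold change 3.86 ± 0.12, adjusted p = 6.9e-16). Spp1, which encodes the matrix protein osteopontin, went from 764, 714 and 718 CPM to 3760, 4440 and 3400 CPM (5.28-fold, 2.40 ± 0.10, adjusted p = 1.2e-13). Thbd, the thrombin receptor thrombomodulin, rose from 31.5, 33.3 and 28.1 CPM to 66.1, 64 and 61.2 CPM (1.04 ± 0.08). Cbs, Mmp13, Enpp1 and Tnfsf11 complete the 9. Trpv5, S100g and Slc30a10, targets best known from kidney and gut, were at 0 counts in all 6 libraries, which allows up to 3 counts over a group (0.0309 CPM). Igfbp3, a further member of the list, was also at 0 counts in all 6. Trpv6, an intestinal calcium channel of the same list, stood at 0.387, 0.243 and 0.379 CPM and at 0.153, 0.161 and 0.27 CPM, a difference that did not pass (-0.78 ± 0.62, adjusted p = 0.45).

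The 12 largest rises were picked among genes that averaged 1 CPM or more across the 6 libraries and whose groups did not overlap, and were led by genes below 1 CPM in the libraries labelled 1,25D. Inmt, an enzyme that methylates indoles such as tryptamine, had 0.507, 0.304 and 0.408 CPM in the libraries labelled 1,25D and 29.4, 32.6 and 26.8 CPM with both agents (72.1-fold, 6.17 ± 0.26, adjusted p = 1.9e-13). Krt17, a type I keratin, had 0.238, 0.152 and 0.291 CPM and then 8.67, 10.6 and 9.32 CPM (5.36 ± 0.35, adjusted p = 2.9e-10). The relatives looked at did not rise with it: Krt14 stood at 0.656, 0.426 and 0.379 CPM and at 0.58, 0.709 and 0.809 CPM (0.52 ± 0.46, adjusted p = 0.51). Krt18 had 9 counts over the libraries labelled 1,25D and 3 with both agents. Krt8 had 37 and 8 counts, a ratio of 0.224 with a counting interval of 0.0902 to 0.489. Klhl33, a member of the kelch-like family, had 5.24, 4.9 and 5.95 CPM and then 73.9, 57.1 and 76 CPM (3.68 ± 0.13). Elfn1, a membrane protein of synapses, was more scattered than the others, at 0.447, 0.974 and 1.43 CPM and at 16.6, 9.15 and 21.9 CPM (4.05 ± 0.36, adjusted p = 3.9e-08). Its groups did not overlap. The remaining rises of this group were Tnni1, the slow-muscle troponin I (3.85 ± 0.45), Hp, the haemoglobin-binding haptoglobin (3.28 ± 0.34), Nxph3, a secreted neurexin ligand (2.88 ± 0.41), Galnt15, an enzyme of mucin-type glycosylation (2.76 ± 0.14), and Hoga1, a mitochondrial aldolase of hydroxyproline breakdown (2.74 ± 0.11), with Cbs, Enpp3 and Mmp13 described elsewhere. All 12 passed in each of the 15 alternatives.

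**Figure D1:**
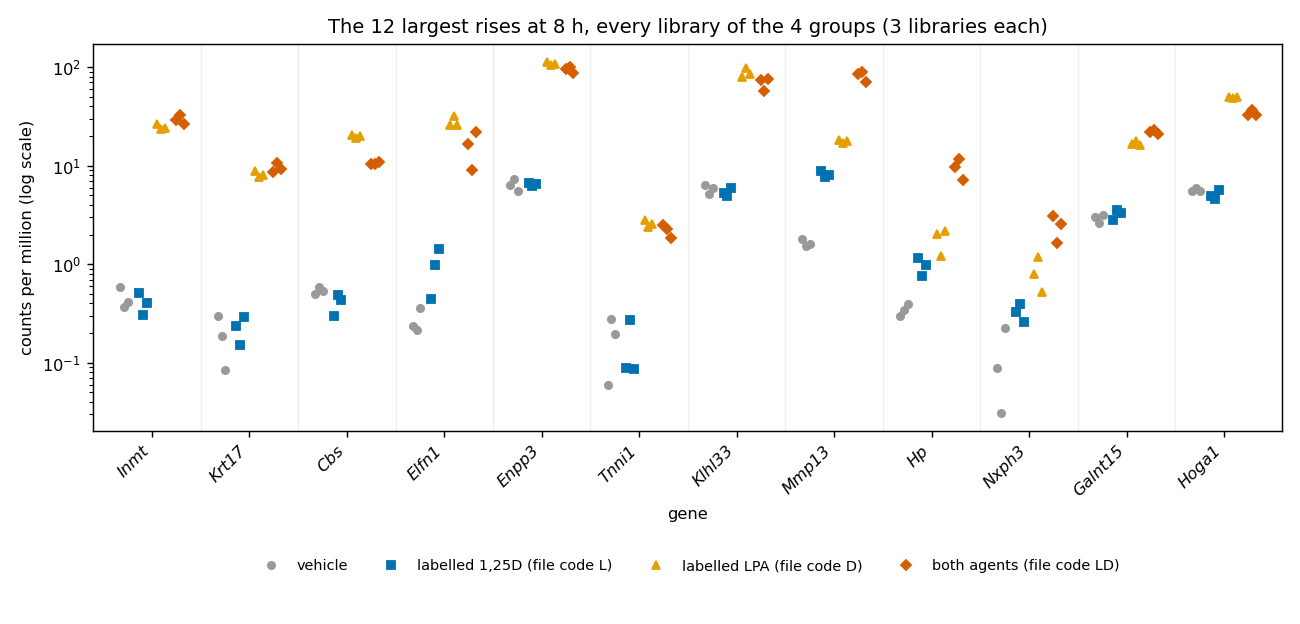
CPM on a log scale for the 12 largest rises at 8 h, with 1 point per library and 3 libraries per group. The both-agents points lie above all points labelled 1,25D for each gene, which the choice of these genes required, and the libraries labelled LPA lie above vehicle for each of the 12.

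Of the 5 rises with the smallest p-values, Enpp3 was also among the 12 largest, and the other 4 rose by 3.26-fold to 5.15-fold. Gprc5a, an orphan receptor induced by retinoic acid, stood at 68, 68.5 and 68.1 CPM and at 280, 289 and 273 CPM (4.11-fold, 2.04 ± 0.06, adjusted p = 3.7e-16). A related receptor went the other way: Gprc5b fell from 3.81, 4.17 and 5.8 CPM to 2.56, 2.19 and 3.06 CPM (-0.82 ± 0.19, adjusted p = 0.007). Npr3, the clearance receptor for natriuretic peptides, stood at 15, 14.7 and 14 CPM and at 74.4, 72.3 and 75.8 CPM (2.35 ± 0.07, adjusted p = 1.7e-15). Npr1, a signalling receptor for the same peptides, rose as well, from 1.52, 1.25 and 1.84 CPM to 4.91, 3.93 and 6.48 CPM (1.73 ± 0.25, adjusted p = 5.1e-05), while Npr2 did not pass (-0.47 ± 0.22, adjusted p = 0.21). Rgl1, an exchange factor for Ral GTPases, went from 32.6, 31.2 and 29.3 CPM to 102, 101 and 101 CPM (1.70 ± 0.06, adjusted p = 5.1e-15). Below that mean level, 2 further genes stood out by their differences between the times. Mrgprd, a sensory-neuron receptor, had 0 counts in the 3 libraries labelled 1,25D and 60, 49 and 44 with both agents. Against a floor of 3 counts over the group it was 52.9-fold higher, and its counting interval began at 42.5. Dio2, the deiodinase that activates thyroid hormone, had 1 count against 114, a ratio of 118 with a counting interval of 20.8 to 4710. Dio3, the deiodinase that inactivates the hormone, rose too, from 1.94, 2.04 and 1.75 CPM to 3.6, 3.55 and 5.04 CPM (1.09 ± 0.29, adjusted p = 0.02).

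The 250 bases before the start of Inmt, the largest rise, of Elfn1, among the 12 largest, and of Vdr itself are shown because the receptor's response elements are pairs of hexamers in tandem; they come from the RefSeq promoter table (GRCm38.p6), on the gene's strand from 5′ to 3′, with hexamers of the search in capitals.
Inmt, chr6:55174991-55175240, minus strand: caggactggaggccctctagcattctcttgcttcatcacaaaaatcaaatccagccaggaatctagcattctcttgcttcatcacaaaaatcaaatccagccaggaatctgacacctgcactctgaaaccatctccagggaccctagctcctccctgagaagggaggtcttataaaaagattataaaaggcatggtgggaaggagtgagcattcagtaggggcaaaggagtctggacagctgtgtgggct
Elfn1, chr5:139907616-139907865, plus strand: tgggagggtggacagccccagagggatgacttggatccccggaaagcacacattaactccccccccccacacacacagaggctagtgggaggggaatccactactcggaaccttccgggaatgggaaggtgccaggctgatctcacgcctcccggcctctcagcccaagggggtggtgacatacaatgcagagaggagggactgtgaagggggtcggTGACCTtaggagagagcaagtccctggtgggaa
Vdr, chr15:97908297-97908546, minus strand: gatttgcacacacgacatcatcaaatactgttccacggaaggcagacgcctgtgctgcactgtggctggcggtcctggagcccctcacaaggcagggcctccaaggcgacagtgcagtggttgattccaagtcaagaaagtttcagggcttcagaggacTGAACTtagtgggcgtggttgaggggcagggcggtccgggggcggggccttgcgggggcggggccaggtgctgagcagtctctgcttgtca
The search took AGGTCA, its variant AGTTCA, the variant GGGTCA and the variant GGTTCA on either strand, and a tandem pair of any of these with a spacer of 3 bases. The Elfn1 window holds AGGTCA on the opposite strand, beginning 33 bases before the start, the Vdr window holds AGTTCA on the opposite strand, beginning 91 bases before it, and the Inmt window holds no such hexamer. Over the table's full windows, which run 250 bases before to 50 after a start, no tandem pair was found in the 721 rising genes with an entry, against 1 of 415 falling genes and 1 of 11467 genes tested (0.00872%). A hexamer alone occurred in 45.4% of rising genes, 39.8% of falling genes and 42.5% of all. These matches are letters in a short window and say nothing of distant elements.

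In the mineralization list, 5 of 11 members tested rose and none fell, against 5.74% and 3.43% of all genes (list median 0.23), and 5 rose without the both-agents replicate 2. Enpp1, the main enzyme that makes pyrophosphate, an inhibitor of mineral growth, went from 12.5, 13.3 and 14.2 CPM to 70.1, 82.8 and 67.7 CPM (5.51-fold, 2.46 ± 0.16, adjusted p = 3.2e-10). Dmp1, an acidic matrix phosphoprotein of osteocytes, went from 2.12, 1.95 and 1.95 CPM to 4.33, 4.8 and 3.21 CPM (1.03 ± 0.17, adjusted p = 0.00024). Mgp, the matrix Gla protein that inhibits calcification, went from 713, 658 and 692 CPM to 1020, 1090 and 872 CPM (0.53 ± 0.10, adjusted p = 0.0013). Spp1 and Enpp3, described with the VDR targets, are the other members that rose. The groups did not overlap for these genes, as for 99.5% of all genes that rose.

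Fgf23 itself was barely detected. Its counts were 0, 0 and 1 in the libraries labelled 1,25D and 5, 0 and 1 with both agents, a ratio of 6.22 with a counting interval of 0.755 to 286, so that no difference was detectable at this depth. In vehicle it had 0, 1 and 2 counts, and in the libraries labelled LPA 0, 3 and 1. Of the list on FGF23 production and phosphate handling, 13 members were tested: Dmp1 and Hif1a rose and Sgk1 fell (list median -0.27). Hif1a, a hypoxia-response factor, moved little, from 168, 171 and 174 CPM to 197, 210 and 201 CPM (0.24 ± 0.07, adjusted p = 0.021). The Hif1a call was lost without the both-agents replicate 1 or 2 and without each library labelled 1,25D in turn. It was also lost without a filter on low counts and with length-scaled TPM. Sgk1, a salt- and hormone-responsive kinase, fell from 122, 123 and 115 CPM to 85.2, 97.2 and 79.6 CPM (-0.46 ± 0.08, adjusted p = 0.00029). Il12a, the gene of the p35 chain of interleukin 12, is named in the study's title and stood at 0.656, 0.639 and 0.729 CPM and at 1.65, 1.29 and 1.29 CPM. Its groups did not overlap, and it did not pass (2.08-fold, 1.06 ± 0.35, 95% interval 0.37 to 1.75, adjusted p = 0.063). Il12a passed with DESeq2 (1.05, adjusted p = 0.041) and with length-scaled TPM (1.38, adjusted p = 0.046). Among IL-12 and IL-6 related genes, 1 of 17 members rose, a share near the 5.74% of all genes. The riser was Clcf1, a cytokine of the ciliary neurotrophic group (0.54 ± 0.16, adjusted p = 0.035). Its call was lost without each library labelled 1,25D in turn (adjusted p = 0.11, 0.12 and 0.089 in edgeR). It was also lost without both-agents replicate 1 or 3 (0.13 and 0.11) and with fewer libraries in the fit. Socs1 and Il6 fell, where 3.43% of all genes fell. Il6 had 14 counts over the libraries labelled 1,25D and 1 with both agents. Without the both-agents replicate 2 neither fall passed.

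The RANKL and osteoprotegerin genes moved in opposite directions. Tnfsf11, which encodes RANKL, the ligand that drives osteoclast formation, went from 0.805, 0.669 and 0.641 CPM to 2.59, 2.03 and 2.31 CPM (3.27-fold, 1.71 ± 0.29, adjusted p = 0.00038). Tnfrsf11b, which encodes the decoy receptor osteoprotegerin, went from 7, 6.57 and 7.49 CPM to 1.43, 2.45 and 1.38 CPM, the first of the 12 largest falls chosen by the same rule (-2.0 ± 0.29, adjusted p = 4.4e-05). For both genes the groups were apart, which the choice of Tnfrsf11b required, and both passed in each of the 15 alternatives. Il34, a second ligand of the macrophage colony-stimulating factor receptor, rose from 9.18, 10.9 and 9.15 CPM to 20.2, 16.7 and 17.7 CPM (0.90 ± 0.14, adjusted p = 0.00012). Cxcl12, a chemokine for blood-forming cells, rose from 766, 778 and 790 CPM to 1100, 1170 and 1060 CPM (0.51 ± 0.07). The chemokine Ccl2 fell from 113, 120 and 107 CPM to 66.3, 82.5 and 68 CPM (-0.65 ± 0.11, adjusted p = 0.00051). In the list of osteoclast support, 4 of 13 members tested rose and 5 fell, against 5.74% and 3.43% of all genes (list median -0.05).

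Methionine and homocysteine enzymes included 6 risers among 21 members tested and no faller, against 5.74% and 3.43% of all genes (list median 0.15), and 3 risers without the both-agents replicate 2. Cbs, which condenses homocysteine and serine in the first step towards cysteine, went from 0.298, 0.487 and 0.437 CPM to 10.5, 10.4 and 10.9 CPM (25.8-fold, 4.69 ± 0.18, adjusted p = 4.5e-14). Bhmt, which returns homocysteine to methionine with betaine, went from 0.179, 0.0304 and 0.175 CPM to 1.5, 1.68 and 1.05 CPM (3.41 ± 0.59, adjusted p = 0.00038). Cth, the next enzyme after Cbs, was not tested for want of counts, with at most 0.0894 CPM in any of the 6 libraries. The other 4 that rose, Ahcyl1, Nnmt, Ahcy and Mat2b, had log2 fold changes of 0.26 to 0.77. Ahcy, for example, which splits S-adenosylhomocysteine, stood at 241, 232 and 218 CPM and at 257, 327 and 266 CPM (0.30 ± 0.08, adjusted p = 0.028), with the both-agents replicate 2 the highest. The Nnmt call was lost without each both-agents library in turn (adjusted p = 0.051, 0.1 and 0.057 in edgeR). It was also lost without labelled 1,25D replicate 1 or 3 (0.089 and 0.15).

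The ERK pathway list split, with 6 of 23 members higher and 5 lower, against 5.74% and 3.43% of all genes (list median -0.21). Phosphatases of the pathway moved both ways. Dusp6, which removes phosphate from ERK, went from 34.3, 38.1 and 37.5 CPM to 98.4, 107 and 89.8 CPM (2.69-fold, 1.43 ± 0.08, adjusted p = 1.2e-11), and Dusp1 from 24.3, 28.7 and 25.9 CPM to 62.3, 75.4 and 61.9 CPM (1.34 ± 0.12). Dusp7, another phosphatase of ERK, fell from 42.8, 38 and 41.3 CPM to 26.1, 15.9 and 29.1 CPM (-0.78 ± 0.24, adjusted p = 0.043), a call lost without the both-agents replicate 2 and without each library labelled 1,25D in turn. Etv5, an ETS factor whose level follows ERK activity, went from 20.3, 20.7 and 20.2 CPM to 42, 36.2 and 39.9 CPM (0.95 ± 0.07, adjusted p = 5.4e-09). Its close relative Etv4 went the other way, from 12.3, 12.1 and 13.8 CPM to 8.67, 5.32 and 7.52 CPM (-0.83 ± 0.23, adjusted p = 0.027). The Etv4 call was lost without the both-agents replicate 2 and without each library labelled 1,25D in turn (adjusted p = 0.062, 0.053 and 0.11 in edgeR). Spry1, an inhibitor of receptor tyrosine kinase signalling, fell from 15.8, 16.5 and 15.3 CPM to 5.1, 3.16 and 6.12 CPM (-1.72 ± 0.24, adjusted p = 3.4e-05). Of the ligands of the epidermal growth factor receptor, Ereg rose (0.88 ± 0.18) and Areg rose from 0.179, 0.0609 and 0.0874 CPM to 0.61, 1.13 and 0.39 CPM (2.65 ± 0.61), a call lost without the both-agents replicate 2, whereas Hbegf fell from 7.87, 9.68 and 6.85 CPM to 3.63, 3.96 and 3.81 CPM (-1.10 ± 0.12, adjusted p = 8.4e-07).

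Immediate early genes, the first genes to respond to growth signals, had 7 fallers and 1 riser among 27 members tested, beside 3.43% and 5.74% of all genes (list median -0.22), and 7 fell without the both-agents replicate 2. Egr2, a zinc finger factor, went from 19.1, 23.5 and 17.7 CPM to 7.14, 7.35 and 8.42 CPM (-1.39 ± 0.11, adjusted p = 4.3e-09). Klf6 fell from 114, 117 and 105 CPM to 74.7, 86.2 and 73.5 CPM (-0.52 ± 0.07), and the orphan nuclear receptor Nr4a3 from 5.13, 6.6 and 6.53 CPM to 2.93, 2.45 and 3.45 CPM (-1.04 ± 0.17). Egr1 stood at 215, 213 and 197 CPM and at 133, 85.2 and 156 CPM, where replicate 2 was the lowest, and did not pass (-0.74 ± 0.24, adjusted p = 0.053). The riser was Btg2, an antiproliferative gene (0.54 ± 0.09, adjusted p = 0.00032).

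Genes of TGF-beta, BMP and activin signalling had 9 fallers and 3 risers among 28 members tested, beside 3.43% and 5.74% of all genes (list median -0.36). Fst, the activin-binding inhibitor follistatin, went from 17.3, 18.4 and 18.2 CPM to 93.3, 88 and 97.1 CPM (5.15-fold, 2.37 ± 0.07, adjusted p = 6.9e-16), while Inhba, the activin A subunit, went from 45.6, 47 and 46.1 CPM to 20.9, 19.3 and 20.5 CPM (-1.19 ± 0.12, adjusted p = 3.6e-07). Inhibitor and ligand thus moved in opposite directions for activin, and groups were apart for both genes. The TGF-beta ligands differed among themselves: Tgfb2 fell from 40.8, 41.2 and 38.7 CPM to 22.6, 19.6 and 23.8 CPM (-0.87 ± 0.08, adjusted p = 1.3e-07), and Tgfb3 rose from 65.1, 68.5 and 63.5 CPM to 121, 127 and 116 CPM (0.88 ± 0.07, adjusted p = 5.9e-09). The BMP targets Id1 (-0.77 ± 0.17, adjusted p = 0.0041) and Id2 (-0.58 ± 0.08, adjusted p = 2.7e-05) fell as well.

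In the Wnt list, 7 of 28 members fell and 4 rose, beside 3.43% and 5.74% of all genes (list median -0.34), with 4 falls left when the both-agents replicate 2 was omitted. Lef1, a transcription factor that carries the Wnt signal, fell from 5.9, 4.26 and 5.83 CPM to 1.89, 1.51 and 2.1 CPM (-1.53 ± 0.21, adjusted p = 2.1e-05). The ligands Wnt11 (-2.09 ± 0.35, adjusted p = 0.00025) and Wnt9a (-1.61 ± 0.44, adjusted p = 0.022) fell. The Wnt9a call was lost without the both-agents replicate 1 or 2 and without labelled 1,25D replicate 1 or 3. Sfrp2, a secreted Wnt binder, fell from 126, 130 and 124 CPM to 60.4, 44.6 and 77 CPM (-1.06 ± 0.20, adjusted p = 0.0014). Lgr6, a receptor for R-spondins, rose from 1.88, 1.89 and 1.49 CPM to 6.35, 5.77 and 7.58 CPM (1.91 ± 0.32, adjusted p = 0.00028). Lrp5, the Wnt co-receptor, stood at 55, 56.7 and 58.8 CPM and at 73.2, 50.5 and 90.4 CPM, and its groups overlapped (0.33 ± 0.23, adjusted p = 0.39). Lrp5 passed without a filter on low counts (0.32, adjusted p = 0.037), without replicate 2 of both agents and vehicle (0.52, adjusted p = 0.035) and with the correction for GC content and length (0.54, adjusted p = 0.00032). Of the YAP and TEAD targets, 8 of 20 fell and 2 rose, beside 3.43% and 5.74% of all genes (list median -0.38), and 5 fell without the both-agents replicate 2. Ccn1 fell from 281, 297 and 271 CPM to 169, 149 and 179 CPM (-0.77 ± 0.11), while its sister gene Ccn2 rose from 12.1, 12.4 and 10.5 CPM to 18, 17.6 and 18.4 CPM (0.63 ± 0.10). Gadd45a, a growth arrest gene in the same list, rose from 23.1, 22.7 and 22.3 CPM to 51, 48.2 and 44.8 CPM (1.08 ± 0.08, adjusted p = 1.3e-09).

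**Figure D2:**
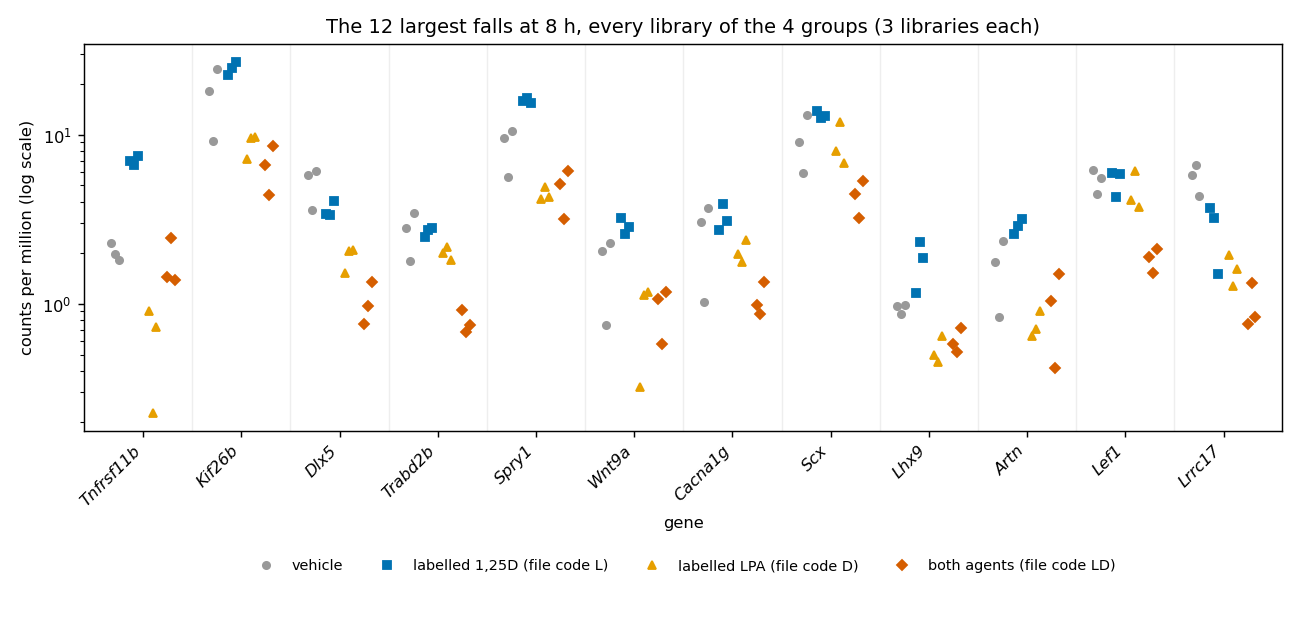
CPM on a log scale for the 12 largest falls at 8 h, with 1 point per library and 3 libraries per group. The both-agents points lie below the points labelled 1,25D for each gene, which the choice of these genes required. For Kif26b, Spry1, Scx, Lef1 and Artn, for example, the lowest both-agents point is replicate 2.

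Dlx5, a homeobox factor of osteoblasts and one of the 12 largest falls, went from 3.4, 3.35 and 4.02 CPM to 0.763, 0.967 and 1.35 CPM (-1.80 ± 0.25, adjusted p = 3.4e-05). Scx, the tendon factor scleraxis, fell from 13.8, 12.6 and 12.9 CPM to 4.46, 3.22 and 5.34 CPM (-1.59 ± 0.23, adjusted p = 5.4e-05), and Sox9, the factor of cartilage, from 5.48, 7.18 and 8.92 CPM to 2.78, 2.06 and 2.79 CPM (-1.50 ± 0.24, adjusted p = 0.00014). Runx2, the main osteoblast factor, stood at 49.6, 53.9 and 55.5 CPM and at 37.4, 22.8 and 39.1 CPM (-0.68 ± 0.18, adjusted p = 0.02), with replicate 2 the lowest. The Runx2 call was lost when that library alone was omitted (adjusted p = 0.15 in edgeR) but held when replicate 2 of vehicle was omitted along with it. It was also lost without labelled 1,25D replicate 2 or 3 (0.052 and 0.076) and with fewer libraries in the fit. The 12 largest falls also held Kif26b, a kinesin-like protein (-1.93 ± 0.26), Trabd2b, a membrane protease that inactivates Wnt ligands (-1.77 ± 0.30), Cacna1g, a T-type calcium channel (-1.59 ± 0.32), Lhx9, a LIM homeobox factor (-1.55 ± 0.26), Artn, the neurotrophic ligand artemin (-1.54 ± 0.33), and Lrrc17, a secreted leucine-rich repeat protein (-1.52 ± 0.28). Among the falls with the smallest p-values were Pcdh18, a protocadherin, which went from 115, 121 and 112 CPM to 52.7, 66.3 and 55.4 CPM (-1.0 ± 0.07, adjusted p = 2.3e-09), and Synpo2, an actin-binding protein, from 43.6, 44.3 and 43 CPM to 21.9, 23.1 and 24.9 CPM (-0.90 ± 0.08).

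Collagens and their crosslinking enzymes comprised 4 risers and 7 fallers among 28 members tested, against 5.74% and 3.43% of all genes (list median -0.34). Without the both-agents replicate 2 the counts were 2 risers and 2 fallers. The chains of collagen VI were among the genes whose calls changed with the libraries in the fit. Col6a2 stood at 447, 469 and 479 CPM and at 278, 162 and 294 CPM (-0.93 ± 0.22, adjusted p = 0.0074). Replicate 2 was also the lowest for Col6a1 and Col6a3, and none of the 3 passed when it alone was omitted. All 3 passed when replicate 2 of vehicle was omitted along with it. Col6a1 and Col6a3 also did not pass without each library labelled 1,25D in turn or without the both-agents replicate 1. Col1a2, a chain of the main bone collagen, stood at 2040, 2110 and 2120 CPM and at 1830, 1200 and 2020 CPM, which did not pass (-0.32 ± 0.22, adjusted p = 0.39) except without a filter on low counts (adjusted p = 0.011). Loxl2, a collagen crosslinking oxidase, rose from 0.834, 1.06 and 0.699 CPM to 3.42, 4.67 and 4.23 CPM (4.73-fold, 2.24 ± 0.22, adjusted p = 1.6e-07), and Plod2, a lysyl hydroxylase, from 149, 163 and 168 CPM to 229, 256 and 231 CPM (0.58 ± 0.07). P4ha3, a prolyl hydroxylase subunit, fell from 79.5, 82.8 and 76.6 CPM to 56.7, 56.3 and 55.8 CPM (-0.50 ± 0.08, adjusted p = 0.00013). In the osteoblast and bone matrix list, 3 of 20 members fell, namely Dlx5, Runx2 and Omd, and none rose.

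Of the matrix metalloproteinases and their inhibitors, 2 of 18 tested members rose and 1 fell, numbers close to the 5.74% and 3.43% of all genes that did. Mmp13, the collagenase of remodelling bone, went from 8.79, 7.7 and 8.04 CPM to 85.9, 90.2 and 70.4 CPM (10-fold, 3.33 ± 0.18, adjusted p = 8e-12), and Mmp16, a membrane-bound protease, from 10.9, 9.61 and 10.5 CPM to 19.1, 22.6 and 18.5 CPM (0.96 ± 0.10). Timp3, an inhibitor of these enzymes, fell from 350, 363 and 341 CPM to 246, 273 and 244 CPM (-0.47 ± 0.07, adjusted p = 4.5e-05). Mmp2 did not pass, at 397, 413 and 403 CPM and 407, 432 and 384 CPM (0.01 ± 0.07, adjusted p = 0.94). Mmp14, which activates Mmp2, stood at 359, 333 and 365 CPM and at 266, 189 and 317 CPM and did not pass either (-0.45 ± 0.20, adjusted p = 0.16).

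Among osteocyte markers, 4 of 14 members tested rose and 2 fell, against 5.74% and 3.43% of all genes (list median 0.02). Fbln7, a fibulin, rose from 66.9, 71.6 and 67.8 CPM to 115, 129 and 108 CPM (0.77 ± 0.07, adjusted p = 6.4e-08), and Gja1, a gap junction protein, from 115, 117 and 118 CPM to 166, 177 and 157 CPM (0.52 ± 0.09). Cd44, a hyaluronan receptor, fell from 252, 260 and 242 CPM to 173, 189 and 174 CPM (-0.49 ± 0.07, adjusted p = 9.3e-05). Irx5 fell with replicate 2 the lowest, from 27, 26.2 and 28.6 CPM to 16.6, 10.3 and 17.8 CPM. Its call was lost when that library was omitted, without the both-agents replicate 1 and without each library labelled 1,25D in turn. Pdpn stood at 83.9, 78.8 and 80.8 CPM and at 84.8, 96 and 87.1 CPM (0.14 ± 0.08, adjusted p = 0.27), and Phex at 0.805, 0.761 and 1.4 CPM and at 0.61, 0.645 and 0.66 CPM (-0.63 ± 0.42, adjusted p = 0.36).

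The chemokine and NF-kB target list was divided, with 4 of 28 members higher and 7 lower, against 5.74% and 3.43% of all genes (list median -0.15). The inhibitors of the pathway moved apart from each other: Nfkbia rose from 103, 104 and 99 CPM to 178, 183 and 161 CPM (0.77 ± 0.09, adjusted p = 2.7e-06), and Nfkbie fell from 27.7, 26.6 and 27 CPM to 14.2, 12 and 15.2 CPM (-0.98 ± 0.13, adjusted p = 1.5e-05). Il1rl1, the receptor of interleukin 33, fell from 514, 493 and 508 CPM to 360, 408 and 329 CPM (-0.47 ± 0.11, adjusted p = 0.0081). Of LPA receptors and enzymes, 2 of 20 members rose and 3 fell, against 5.74% and 3.43% of all genes, and 2 fell without the both-agents replicate 2. Lpar1, a widely expressed LPA receptor, fell from 46.1, 49 and 42.2 CPM to 31.6, 39.2 and 32.3 CPM (-0.41 ± 0.09, adjusted p = 0.0034), whereas Lpar4 and Lpar6 did not pass, with log2 fold changes of 0.04 ± 0.16 and 0.33 ± 0.13. Plpp3, a surface phosphatase that degrades LPA, rose from 25.8, 24.4 and 27.3 CPM to 46.6, 38.2 and 51.3 CPM (0.81 ± 0.10, adjusted p = 6.4e-06).

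In the mitosis list none of 26 members passed, and none of 15 mitochondrially encoded genes did in edgeR; over the alternatives, DESeq2 among them, at most 1 and 2 members of these lists rose and none fell. For the lists that follow, 5.74% of all genes rose and 3.43% fell. DNA replication had 2 risers of 27, Mcm2 and Mcm7, and neither passed without the both-agents replicate 2. Heat shock genes had 3 risers of 13, Hsph1 with the smallest p (0.53 ± 0.09, adjusted p = 0.00024), and 1 riser without the both-agents replicate 2. In the glycolysis and hypoxia list 2 of 26 rose, Pfkfb3, which sets glycolytic rate (0.76 ± 0.09), and the angiogenic factor Vegfa (0.78 ± 0.18), and Pdk4, a brake on pyruvate oxidation, fell (-0.81 ± 0.08). Clock genes had 1 riser and 4 fallers of 18 (against 5.74% and 3.43% of all genes), led by Bhlhe40 (-0.54 ± 0.07, adjusted p = 5.7e-06), and without the both-agents replicate 2 they had 1 and 1. Cholesterol genes had 1 riser and 3 fallers of 22, among them Cyp51, a demethylase of sterol synthesis (-0.49 ± 0.07).

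**Figure D3:**
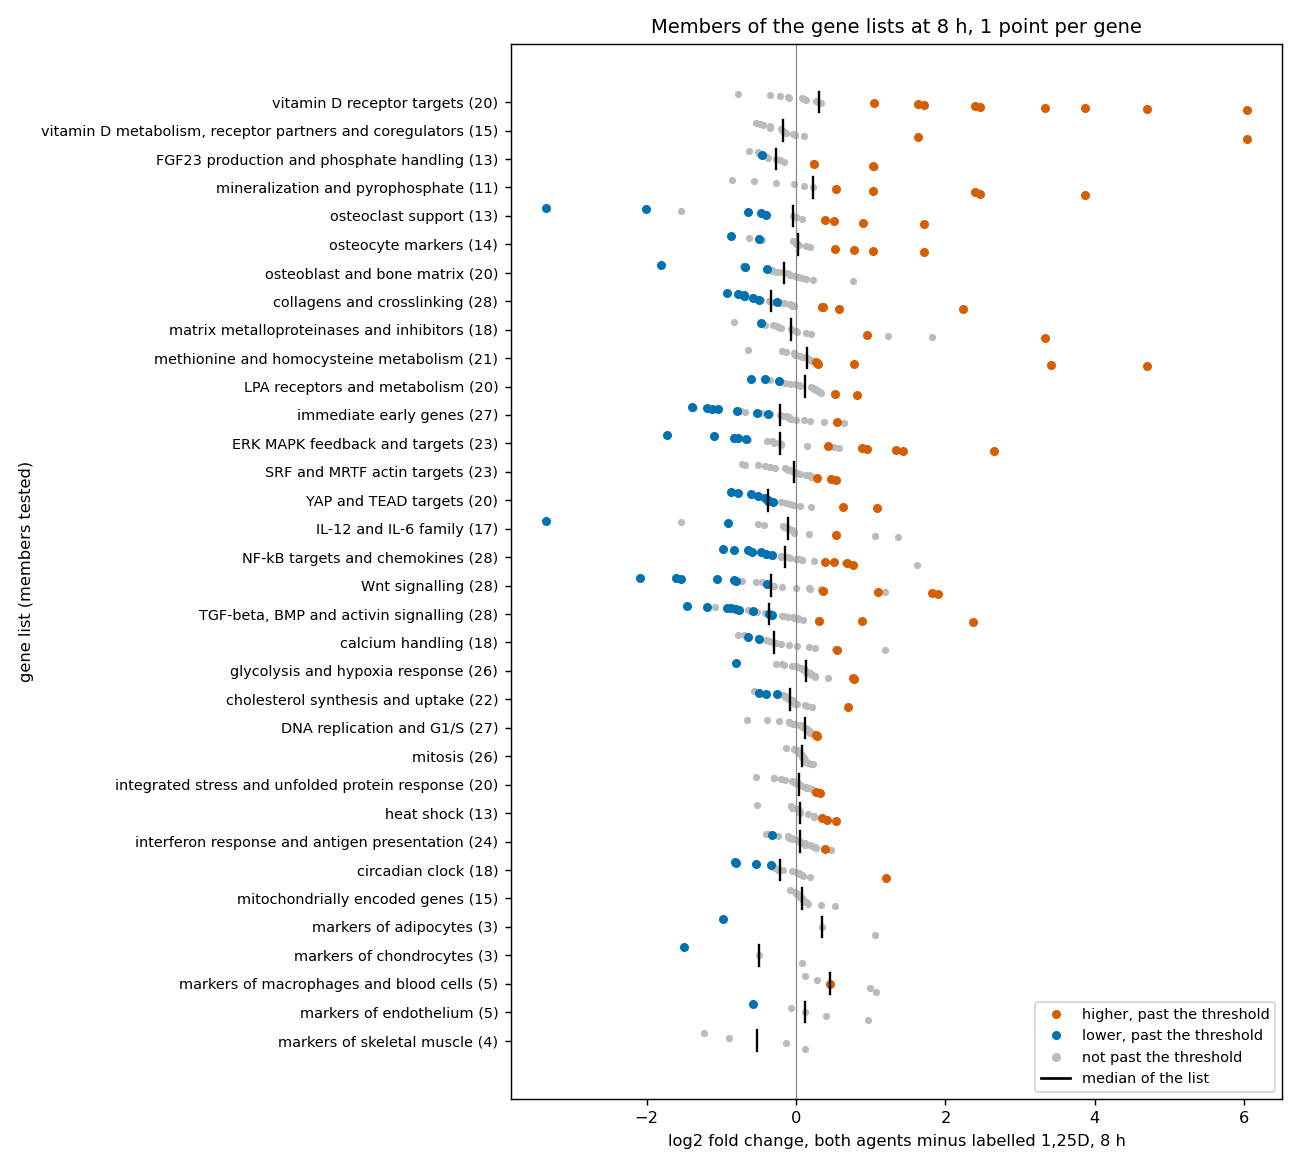
Log2 fold change of each tested member of the 34 gene lists, 1 point per gene, with the list median as a black bar and genes past the threshold in colour. The VDR target list has 9 of 20 members on the right past the threshold and none on the left, while the lists of TGF-beta, Wnt and YAP genes have more coloured points on the left. All lists were chosen with earlier results of these data known.

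For the counts of marker genes below, 5.74% of all genes tested rose and 3.43% fell. Summed over their lists, markers of adipocytes took 3.76 to 5.81 CPM in the libraries labelled 1,25D and 2.69 to 3.72 CPM with both agents. Of 3 tested adipocyte members 1 fell, Plin4, whose groups overlapped. Cartilage markers took 6.56 to 10.1 CPM and 3.06 to 4.14 CPM, of which Sox9 was the 1 called gene of 3 tested, and Col2a1 had 2 and 3 counts in the groups. Macrophage and blood markers took 30.9 to 35.5 CPM and 39.8 to 47.4 CPM with 1 riser of 5, Cd14, which did not pass without the both-agents replicate 2. Endothelial markers took 47.7 to 50.1 CPM and 43.3 to 62.1 CPM with 1 faller of 5, Flt1, and muscle markers 3.34 to 4.14 CPM and 2.93 to 4.06 CPM with none of 4 called. Tyrobp, Emcn, Myod1, Myog and Pax7 were at 0 in all 6 libraries.

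At 2 h the same contrast called 126 genes (0.767%), 100 higher (0.609%) and 26 lower (0.158%). Of these, 88 of the 100 also rose at 8 h, which is 9.33% of the 943, and 17 of the 26 also fell, 3.01% of the 564. The groups at 2 h share no library with those at 8 h. The difference between the times was tested directly and passed for 371 genes (2.26%), with a higher value at 8 h in 287 (1.75%) and a lower one in 84 (0.511%); 262 of them risers at 8 h with the larger value at 8 h and 80 of them fallers with the lower value at 8 h. Vdr shows the pattern: it stood at 169, 184 and 186 CPM at 2 h in the libraries labelled 1,25D and at 203, 183 and 201 CPM with both agents (0.12 ± 0.08, adjusted p = 0.73), and the 8 h effect was larger by 1.51 on the log2 scale (adjusted p = 1e-08). Inmt differed by 1.02 ± 0.28 at 2 h, which did not pass (adjusted p = 0.13), and by 5.15 more at 8 h. Enpp3 had already risen at 2 h, from 5.4, 6.67 and 6.01 CPM to 11, 11.2 and 9.71 CPM (0.82 ± 0.11, adjusted p = 0.0002). Klhl33 was the exception among the largest rises, at 2.64, 2.11 and 1.84 CPM and 22.6, 21.6 and 20.3 CPM at 2 h (3.29 ± 0.14, adjusted p = 1.3e-12), and its time difference did not pass (0.40, adjusted p = 0.36). Of the fallers, Egr2 was already lower at 2 h (-1.11 ± 0.10, adjusted p = 4.9e-07), and Tnfrsf11b was not past the threshold (-0.28 ± 0.27, adjusted p = 0.85).

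**Figure D4:**
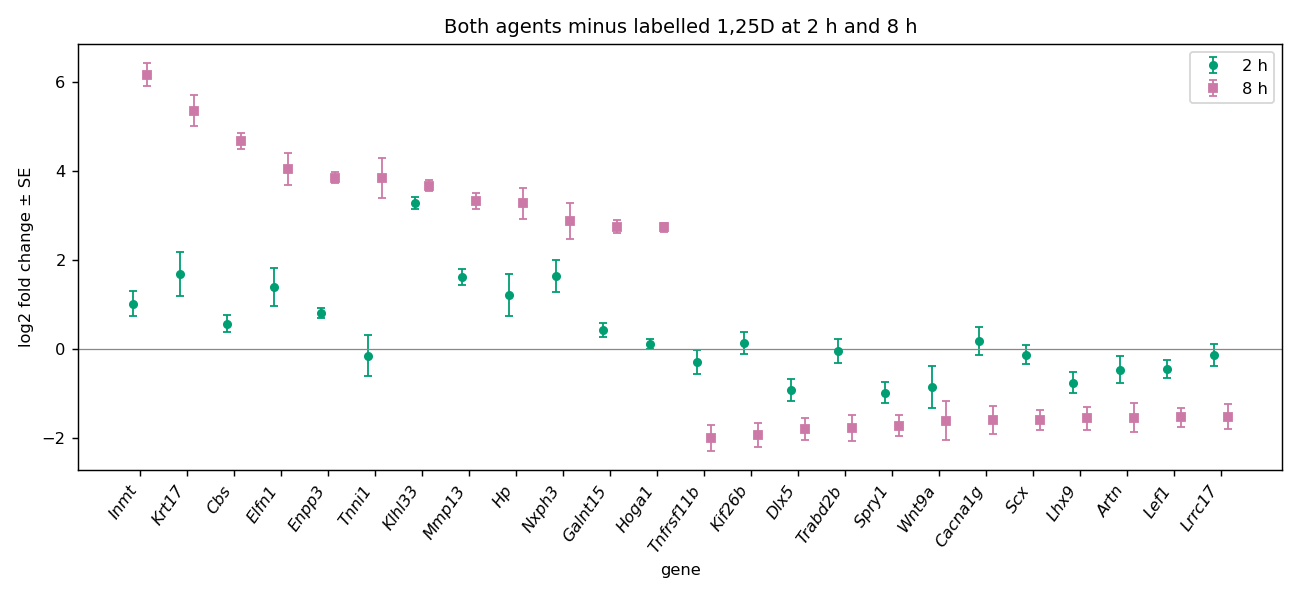
Log2 fold change of both agents minus labelled 1,25D, with its standard error, at 2 h and at 8 h for the 12 largest rises and 12 largest falls at 8 h. Klhl33 lies at 3.29 and 3.68, close at both times, whereas Inmt goes from 1.02 to 6.17.

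The step between vehicle and the libraries labelled LPA at 8 h shares no library with the comparison and differs from it only in that the agent of the files coded h8_L is absent from both sides. It called 1971 genes (12%), 1088 higher (6.62%) and 883 lower (5.38%). That count was 565 with only these 6 libraries in the fit and 1051 to 3302 with 1 library left out. Of the 943 risers, 427 (45.3% of them and 39.2% of the 1088) also rose from vehicle to labelled LPA, and 7 fell. Of the 564 fallers, 209 (37.1% of them and 23.7% of the 883) were also lower, and 10 were higher. Inmt had 0.591, 0.372 and 0.419 CPM in vehicle and 26.5, 23.8 and 24 CPM in the libraries labelled LPA, a log2 fold change of 5.73 ± 0.26 beside 6.17 ± 0.26 in the comparison. Spp1 went from 256, 295 and 265 CPM in vehicle to 1820, 1450 and 1620 CPM in the libraries labelled LPA, so that its steps were 2.58 ± 0.10 and 2.40 ± 0.10, and the both-agents libraries held the highest values of the 4 groups. Mmp13 behaved alike, at 1.8, 1.52 and 1.62 CPM in vehicle and 18.1, 17 and 17.8 CPM in the libraries labelled LPA, with steps of 3.42 ± 0.20 and 3.33 ± 0.18.

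**Figure D5:**
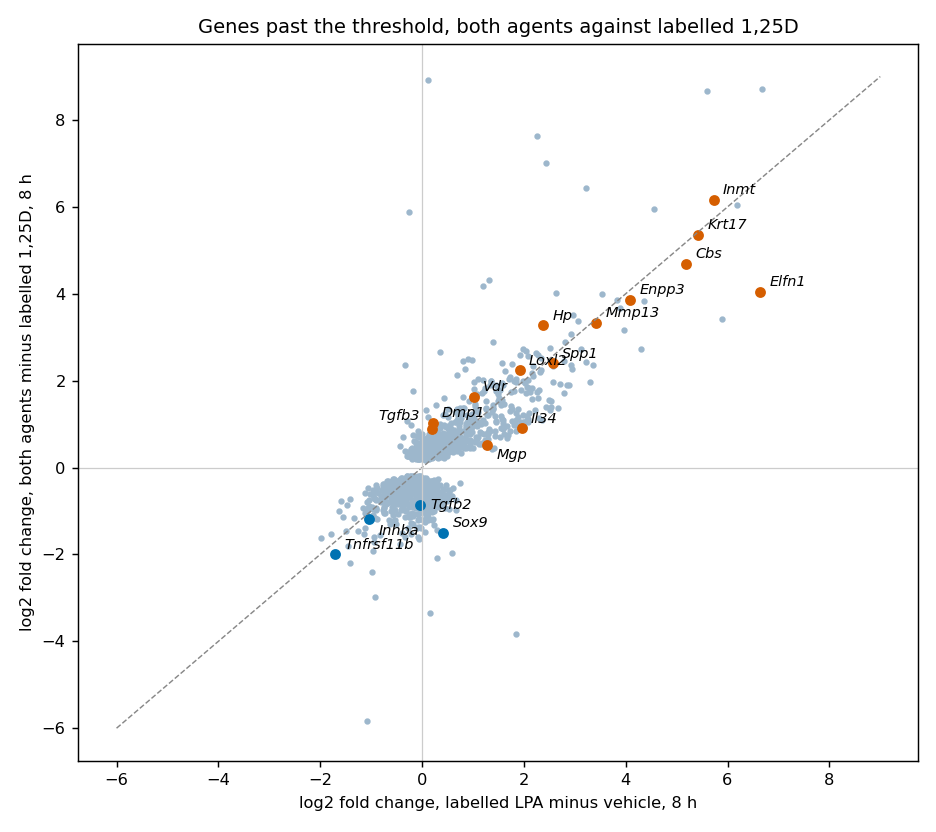
Log2 fold change of both agents minus labelled 1,25D at 8 h against that of labelled LPA minus vehicle at 8 h for the 1507 genes past the threshold in the first, with some genes named and the dashed line marking equal values. Inmt, Krt17, Enpp3, Mmp13 and Spp1 lie within 0.44 of the line, Vdr and Tgfb3 above it, and Mgp, Il34 and Elfn1 below it.

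Whether the 2 steps differ was tested as an interaction on the log2 scale, which passed for 1262 genes (7.68%), 667 above 0 (4.06%) and 595 below (3.62%). That count moved between 13 and 4203 across 20 alternatives, so that the genes described here are ones that passed in most of them, apart from Cyp24a1. Rgl1 passed in 20 of 20: its step was 1.08 ± 0.06 from vehicle and 1.70 ± 0.06 in the comparison, an interaction of 0.62 ± 0.08 (adjusted p = 0.0012). Tgfb3 also passed in 20 of 20 (0.69 ± 0.10, adjusted p = 0.0014), with 85.9, 85.2 and 84.5 CPM in vehicle and 95.8, 97.6 and 99.8 CPM in the libraries labelled LPA. Vdr passed in 19 (0.61 ± 0.11, adjusted p = 0.01): it stood at 134, 112 and 130 CPM in vehicle, above the libraries labelled 1,25D, and at 247, 260 and 256 CPM in the libraries labelled LPA. Steps were smaller or more negative in the comparison for Tgfb2 (-0.83 ± 0.12, 19 of 20), Sox9 (-1.92 ± 0.33, 19 of 20), Mgp (-0.75 ± 0.14, 19 of 20), Fst (-0.55 ± 0.10, 18 of 20) and Il34 (-1.06 ± 0.20, 17 of 20). Mgp, for example, had 350, 384 and 348 CPM in vehicle and 1010, 779 and 845 CPM in the libraries labelled LPA. For Cyp24a1 the interaction could not be read, at -0.14 ± 1.89.

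The share of a gene's counts in its most abundant transcript was compared for 112 named genes, and with 3 libraries against 3 the exact two-sided permutation test cannot go below 0.1. Runx2 had 34.3%, 32% and 30.9% of its counts in this transcript in the libraries labelled 1,25D and 60.8%, 52.8% and 43.4% with both agents, a difference of 19.9 percentage points (exact p = 0.1, adjusted p = 0.93 over the 112). Rgl1 went from 63.6%, 66.1% and 59.9% to 84%, 76.1% and 80.4% (17 percentage points, exact p = 0.1, adjusted p = 0.93). In Vdr the main transcript held 99.2% to 99.7% in the 6 libraries.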

How the data were processed

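RNA of 24 libraries was sequenced, 3 in each of 8 groups (vehicle, each agent and both agents at 2 h and 8 h), of which 6 form the comparison. Per the file headers, the authors deposited estimated counts and TPM (length-corrected transcript levels) for 139145 Ensembl transcripts in each library; mm39 is the build that the submitters' processing notes name (counting program: not given in the sources used here). Estimated counts were summed to genes through GENCODE names (135078 transcripts matched, 99.50% to 99.53% of the counts of the 6 libraries), giving 49172 genes, and rounded. Counts were tested with edgeR 4.0.16 (R 4.3.3) with TMM scaling, filterByExpr at a minimum count of 10 and the robust quasi-likelihood fit over all 24 libraries in 8 groups; p-values were adjusted over the 16424 genes tested with a threshold of 0.05. Intervals of 95% on count ratios are exact binomial ones and cover counting error only. Replicate libraries differed by more than sampling noise, so each was counted once.

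Named genes were the 12 largest rises and falls with a mean of at least 1 CPM, the 5 smallest p-values each way, up to 4 risers and 4 fallers of each list, the 5 largest time differences and interactions each way, and paralogs of these. The members and lists were chosen with earlier results of these data known. Alternatives were DESeq2 1.42.0, no filter, length-scaled TPM, fewer libraries in the fit, a replicate block, leaving out each library and corrections for GC content and length. The fit was tested on simulated data. File letters and titles disagree for the single agents, so groups are named by their labels. Some results are not reported here.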

Additional observations from a re-analysis of the deposited data

Results flagged for a closer look

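The steps from labelled 1,25D to both agents and from vehicle to labelled LPA at 8 h differed on the log2 scale for the following named genes (edgeR interaction, adjusted p below 0.05). The step was lower in the first for Sema4f (-5.69, a gene with 1 against 20 counts), Elfn1 (-2.59), Wnt11 (-2.39), Sox9 (-1.92), Cpeb2 (-1.72), Il34 (-1.06), Tgfb2 (-0.83), Mgp (-0.75), Fst (-0.55) and Ccnd1 (-0.54). It was higher for Vdr (0.61), Rgl1 (0.62), Tgfb3 (0.69), Adhfe1 (0.92), Nrn1 (0.92), Mageb7-ps (1.07), F13a1 (1.25) and Sgpp2 (1.38). Of 20 alternatives, the interaction of Elfn1 passed in 12, those of Wnt11 and Mageb7-ps in 11, those of Cpeb2 and F13a1 in 10, that of Sema4f in 9 and those of Adhfe1 and Sgpp2 in 6; the others passed in 16 or more.

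The step from labelled 1,25D to both agents differed between 8 h and 2 h, with a lower value at 8 h, for Kif26b (-2.06), Wnt11 (-2.0), Cacna1g (-1.79) and Tnfrsf11b (-1.72). It was higher at 8 h for Tnni1 (4.0), Cbs (4.12), Inmt (5.15), Dio2 (6.01) and Mrgprd (7.51). The fitted values of Dio2 and Mrgprd, with 1 and 0 counts in the libraries labelled 1,25D at 8 h, depend on the prior count of the fit.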

How the results depend on the processing

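No named gene that passed turned its direction under an alternative, but the balance of calls did without a filter on low counts. The 1507 calls at 8 h became 2386 without a filter on low counts (1506 of them lower, so that 36.9% were higher in place of 62.6%), 909 with only the 12 libraries at 8 h in the fit (579 higher, 330 lower) and 807 with only the 6 libraries (503 higher, 304 lower). Leaving out 1 library gave 886 to 1936 calls, 557 to 1101 higher and 298 to 835 lower: 897 without the both-agents replicate 2, and 975, 954 and 886 without labelled 1,25D replicates 1, 2 and 3. The 126 calls at 2 h became 258 without the filter, 218 with DESeq2, and 74 to 107 with 1 library left out (74 without labelled 1,25D replicate 3 and 77 without the both-agents replicate 2, both of 2 h). The 371 time differences became 725 without the filter, 224 with length-scaled TPM and 239 to 384 with 1 library left out, 244 and 239 without those same libraries. The 1971 calls between labelled LPA and vehicle became 3006 without the filter, 565 with only their 6 libraries and 1051 to 3302 with 1 library left out (1067 and 3302 without vehicle replicates 2 and 3, 1051 without labelled LPA replicate 2). The 1262 interactions became 3094 without the filter, 3546 with DESeq2, 539 with length-scaled TPM, 13 with the 12 libraries at 8 h and 30 to 4203 with 1 library left out, lowest and highest without the both-agents replicates 2 and 3. For these changes the cause was not tested. Chosen after seeing the data were a fit without replicate 2 of both agents and vehicle (25 interactions, 1120 calls in the comparison) and a correction for GC content and transcript length (1896 interactions, 211 calls at 2 h, 1879 in the comparison). With the replicate number as a block, 1389 genes were called and 1364 of the 1507 remained; same-numbered libraries did not deviate together (correlations of -0.05, -0.01 and 0), so the numbers do not pair the libraries. For named genes, 314 values under an alternative lost the call and 8 gained it, against 1948 that kept their side. Depth limits Fgf23, Sost and Cyp24a1, with 10 or fewer counts in a group.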
